A study of Homo sapiens with 64 samples.

Results

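The gene loci examined were those of TUBG1, TUBG2 and BRSK1, seen through the peaks that were called there by chromatin immunoprecipitation followed by sequencing (ChIP-seq). A peak is a stretch of genome where precipitated DNA is enriched. The members were all peaks that lay wholly between positions 40760000 and 40820000 of chromosome 17, the TUBG window, or between 55790000 and 55825000 of chromosome 19, the BRSK1 window, in the human build hg19. There were 36 such peaks among the 2442 peaks of all lists, 16 in the TUBG window and 20 in the BRSK1 window. The windows were chosen by the peaks called in these same lists, so the presence of peaks there is a description and was not tested.

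The γ-tubulins, encoded by TUBG1 and TUBG2, nucleate microtubules as part of a ring complex at the centrosome and are also found in the nucleus. TUBG1 is expressed in most tissues and TUBG2 mainly in the brain, and their coding sequences are close copies of each other. BRSK1, also called SADB, is a serine/threonine kinase best known from neurons and known to phosphorylate γ-tubulin. Of the other proteins precipitated, PCNA is the ring that tethers DNA polymerases to their template, Mcm5 belongs to the MCM helicase ring that is loaded at replication origins, and FoxM1 is a forkhead transcription factor of the late cell cycle.

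Cells were U2OS, an established human osteosarcoma line, or shTUBG U2OS, the same line with a stably expressed short hairpin RNA against TUBG that lowers γ-tubulin. Both were harvested asynchronous or 3, 7 or 9 h after release from a double thymidine block, which holds cells in early S phase. Chromatin cut with micrococcal nuclease was precipitated with antibodies to all 4 proteins in U2OS, and to γ-tubulin and PCNA alone in shTUBG U2OS. Each of the 24 peak lists stood for an antibody, a time and a line and covered both labelled samples of its group, so no value has a replicate error and differences between lists were not tested. The lists held from 17 to 244 peaks, and the read depth behind them is unknown. In U2OS the Mcm5 list at 7 h was short, with 29 peaks, and all 17 peaks of the PCNA list at 7 h lay on the mitochondrial genome.

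The start of each gene is shown because the antibodies include a transcription factor and replication proteins. The runs are the 250 bases before the annotated start in RefSeq (GRCh38.p14), all on the plus strand, at chr17:42609433-42609682 for TUBG1, chr17:42659034-42659283 for TUBG2 and chr19:55283747-55283996 for BRSK1. These coordinates belong to a later build than the peaks and cannot be set beside them. Both strands were searched for the E2F-type motifs TTTGGCGC, TTTCCCGC and TTTCGCGC and for the forkhead motif TAAACA, and matches are in capitals.
TUBG1: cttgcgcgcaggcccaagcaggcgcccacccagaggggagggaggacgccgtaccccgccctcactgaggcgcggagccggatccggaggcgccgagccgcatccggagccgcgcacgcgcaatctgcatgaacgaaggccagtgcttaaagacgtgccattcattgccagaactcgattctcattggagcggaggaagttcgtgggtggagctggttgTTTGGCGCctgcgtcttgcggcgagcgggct
TUBG2: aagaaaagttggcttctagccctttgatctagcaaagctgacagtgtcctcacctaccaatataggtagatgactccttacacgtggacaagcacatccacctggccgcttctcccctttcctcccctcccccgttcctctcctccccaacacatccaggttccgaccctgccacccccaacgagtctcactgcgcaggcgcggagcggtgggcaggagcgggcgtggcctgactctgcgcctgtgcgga
BRSK1: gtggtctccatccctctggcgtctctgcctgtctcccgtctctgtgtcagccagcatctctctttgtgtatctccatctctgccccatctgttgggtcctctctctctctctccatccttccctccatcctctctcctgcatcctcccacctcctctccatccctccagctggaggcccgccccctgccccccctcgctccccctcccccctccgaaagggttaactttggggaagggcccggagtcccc
The TUBG1 run held TTTGGCGC, beginning 31 bases before the start. At least 1 of the 3 E2F-type motifs was present in 2.32% of 35116 RefSeq promoter windows of this length, and TTTGGCGC itself in 0.550%. The TUBG2 and BRSK1 runs held none of the 3. TAAACA was in none of the 3 runs and in 11.0% of all windows. A match describes the letters of the window and no binding site.

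Peaks in both windows lay in separate places. Peaks that shared at least 1 bp were merged into positions, which gave 4 positions in the TUBG window, called T1 to T4 from low to high coordinate, and 4 in the BRSK1 window, called B1 to B4. All lists together held 387 merged regions. The nearest region outside the TUBG window was 5.96 Mb before it and 18.9 Mb after it, and the nearest before the BRSK1 window was 18.0 Mb away, with none after it on chromosome 19. On chromosome 17 the window held 16 of the 23 peaks, and on chromosome 19 it held 20 of 117.

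T1, T2 and T3 lay at the low end of the TUBG window and T4 stood alone at its high end. T1 covered chr17:40762298-40762557, T2 chr17:40765827-40766085, T3 chr17:40766194-40767019 and T4 chr17:40818047-40818599. The gap between T1 and T2 was 3269 bp, that between T2 and T3 was 108 bp, and that between T3 and T4 was 51027 bp. RefSeq orders TUBG1 before TUBG2 on this chromosome, both on the plus strand, with PLEKHH3 following TUBG2. No gene annotation of hg19 was used, so whether a position lies in an exon, an intron or a promoter, and in which gene, was not determined here.

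The BRSK1 window had a pair of neighbouring positions and a pair of more distant ones. B1 covered chr19:55795727-55796022, B2 chr19:55800850-55801053, B3 chr19:55812823-55813075 and B4 chr19:55813976-55814326. Between them lay gaps of 4827 bp, 11769 bp and 900 bp. RefSeq places HSPBP1 before BRSK1 and TMEM150B overlapping its end, and exons of BRSK1 were not assigned here either.

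**Figure D1:**
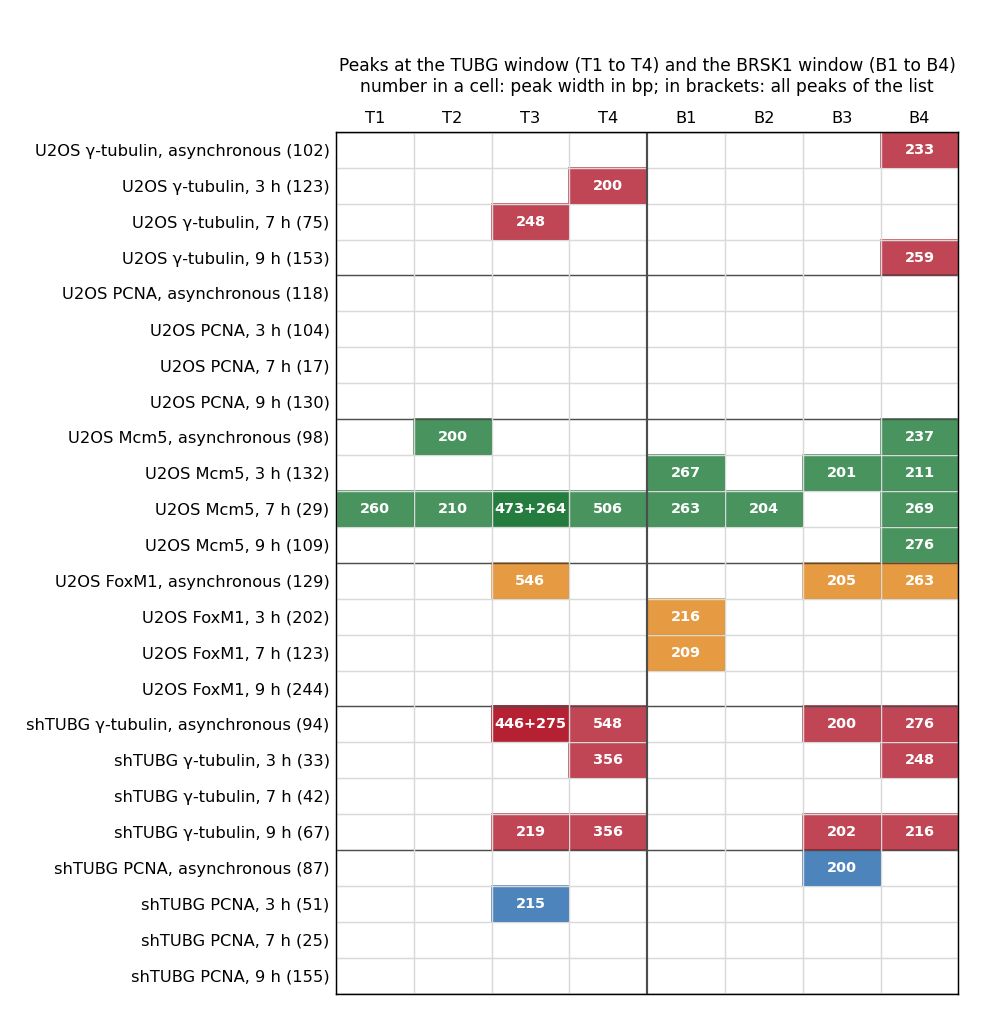
Peaks of the 24 lists (rows, with the number of peaks in the list in brackets) at the 8 positions (columns), coloured by antibody, with the width of each peak in bp in its cell. Mcm5 at 7 h filled 7 of the 8 columns, and the 4 PCNA rows of U2OS were empty.

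B4 was the position called in the most lists and T3 and B3 were called with the most antibodies. B4 was called in 10 of the 24 lists, namely in all 4 Mcm5 lists, in γ-tubulin of asynchronous and 9 h U2OS, in γ-tubulin of asynchronous, 3 h and 9 h shTUBG U2OS, and in FoxM1 of asynchronous U2OS. T3 was called in 6 lists, T4 and B3 in 5 each, B1 in 4, T2 in 2, and T1 and B2 in 1. T3 and B3 were the 2 positions called for all 4 antibodies, and 19.6% of all regions were called for all 4. Both PCNA calls came from shTUBG U2OS, since PCNA of U2OS had no peak in either window. PCNA called 34.9% of all regions in shTUBG U2OS and 23.5% in U2OS. The share of regions with PCNA in the former line and not the latter was not counted. Over all regions, 54.8% were called in at least 2 lists, against 6 of the 8 positions here. The TUBG window was called in 9 lists and the BRSK1 window in 13. Both were called in 6 lists, the TUBG window alone in 3, the BRSK1 window alone in 7, and neither in 8.

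T3 consisted of a left and a right part. With the stricter rule that peaks share at least 25% of both their lengths, its 8 peaks fell into chr17:40766194-40766739 with 5 peaks and chr17:40766731-40767019 with 3. Mcm5 of U2OS at 7 h had a peak of 473 bp in the left part and a peak of 264 bp in the right part. γ-tubulin of asynchronous shTUBG U2OS showed the same arrangement, with 446 bp on the left and 275 bp on the right. FoxM1 of asynchronous U2OS had 546 bp on the left, and γ-tubulin had 248 bp there in U2OS at 7 h and 219 bp in shTUBG U2OS at 9 h. PCNA of shTUBG U2OS at 3 h had its 215 bp on the right.

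T4 carried the widest peak at these loci. γ-tubulin of asynchronous shTUBG U2OS had a peak of 548 bp there, Mcm5 of U2OS at 7 h one of 506 bp, and γ-tubulin of shTUBG U2OS one of 356 bp at each of 3 h and 9 h. γ-tubulin of U2OS at 3 h had a peak of 200 bp, the shortest width in any list. A stretch of 196 bp was common to the 5 peaks.

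At B4 the 10 peaks were between 211 and 276 bp wide, and 108 bp were common to all of them. At B3 the 5 peaks, of 200 to 205 bp, had 152 bp in common, and at B1 the 4 peaks, of 209 to 267 bp, had 187 bp in common. B1 was called only in FoxM1 and Mcm5 lists, at 3 h and 7 h with each antibody. T2 was called for Mcm5 in asynchronous cells (200 bp) and at 7 h (210 bp), with 151 bp in common, while T1 (260 bp) and B2 (204 bp) rested on the Mcm5 list at 7 h alone.

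**Figure D2:**
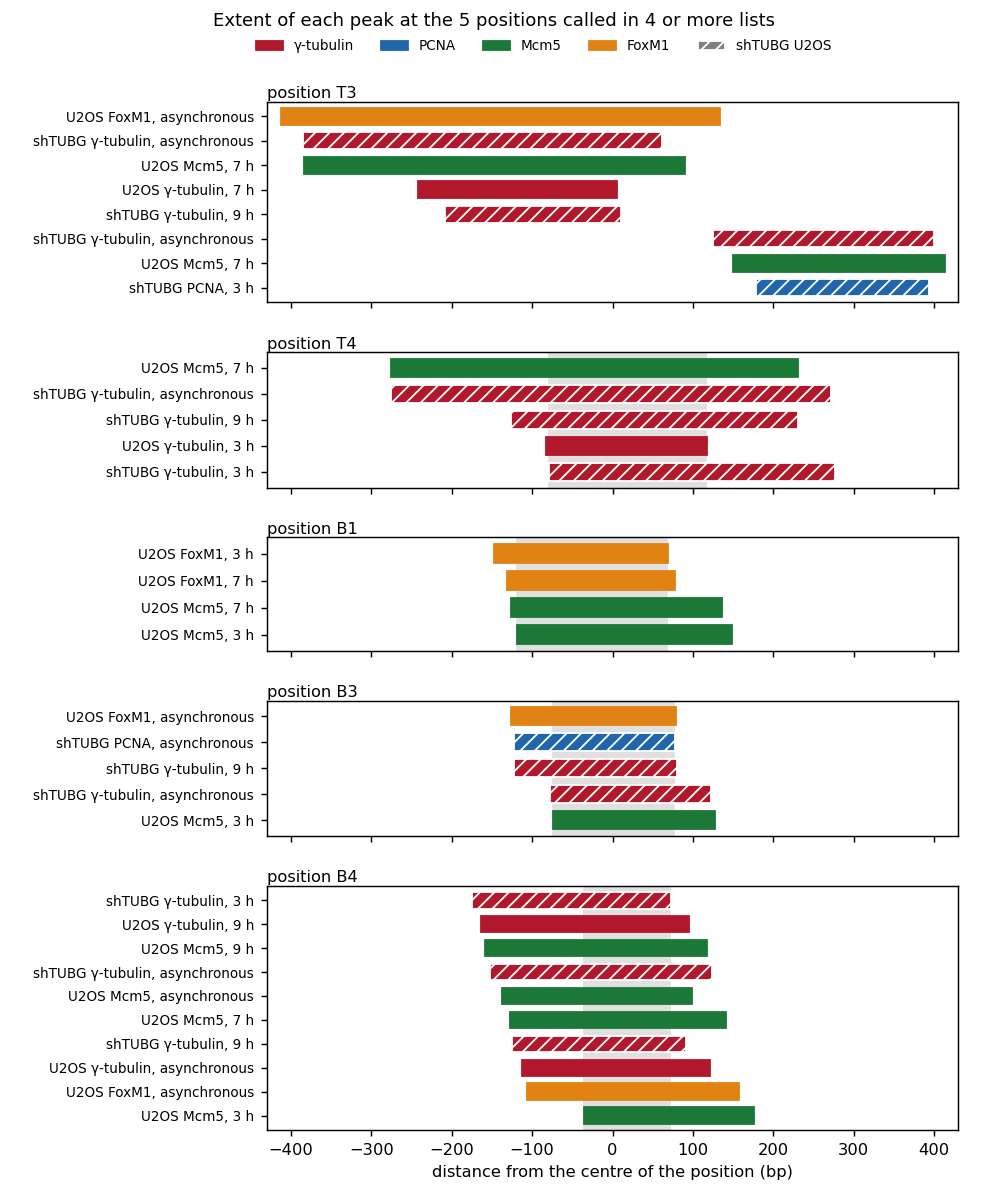
Extent of each peak at T3, T4, B1, B3 and B4, as distance in bp from the centre of the position, with hatched bars for shTUBG U2OS and a grey band for the stretch common to all peaks. The peaks of T3 form a left group of 5 and a right group of 3, while at B4 all 10 share 108 bp.

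Few peaks began or ended at the same base, at the loci as over all peaks. Of the 72 peak edges at the loci, 6 (8.33%) coincided exactly with the same kind of edge in another list, against 11.0% of the 4356 edges of all peaks off the mitochondrial genome. At T4, Mcm5 of U2OS at 7 h and γ-tubulin of asynchronous shTUBG U2OS both started at 40818047, and the same Mcm5 peak and γ-tubulin of shTUBG U2OS at 9 h both ended at 40818552. At B3, PCNA of asynchronous shTUBG U2OS and γ-tubulin of shTUBG U2OS at 9 h both started at 55812827.

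Peaks at the loci were mostly short. Their short width was known when the windows were chosen, so its contrast with other peaks is a description and was not tested. The other peaks reached 10323 bp and included those on the mitochondrial genome. Their median width was 248 bp (range 200 to 548), and 29 of the 36 (80.6%) were at most 300 bp wide, while the 2406 other peaks had a median of 352 bp and a share of 37.7%. All 20 peaks of the BRSK1 window were at most 276 bp wide, with a median of 224 bp. In the TUBG window the median was 270 bp and 9 of 16 peaks (56.2%) were at most 300 bp, with the widest at 548 bp. Within each list with peaks at the loci, their median width was below that of the other peaks, with an exception. In γ-tubulin of shTUBG U2OS at 3 h the medians were 302 bp at the loci and 247 bp elsewhere. The shortest width in the lists, 200 bp, was that of 4 peaks at the loci and of 89 of all 2442 peaks.

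The score given to each peak in the lists is a whole number whose meaning is not given in the sources used here, so it served only to rank peaks within a list. The highest score of all 33 peaks in the γ-tubulin list of shTUBG U2OS at 3 h, 167, belonged to B4. B4 also ranked 11 of 129 for FoxM1 in asynchronous U2OS (score 127), 13 of 67 for γ-tubulin in shTUBG U2OS at 9 h (107) and 19 of 94 in the same line and antibody in asynchronous cells (139). For Mcm5 it ranked 7 of 29 at 7 h (score 158), 37 of 98 in asynchronous cells (106), 70 of 109 at 9 h (74) and 81 of 132 at 3 h (81). In U2OS γ-tubulin it ranked 54 of 102 in asynchronous cells (score 90) and 107 of 153 at 9 h (77).

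The ranks of the other positions varied between lists. B3 ranked 32 of 129 for FoxM1 in asynchronous U2OS (score 93), 23 of 67 for γ-tubulin in shTUBG U2OS at 9 h (100) and 64 of 87 for PCNA in asynchronous shTUBG U2OS (63). It also ranked 38 of 94 for γ-tubulin in asynchronous shTUBG U2OS (score 85) and 86 of 132 for Mcm5 at 3 h (77). At B1 FoxM1 ranked 163 of 202 at 3 h (score 69) and 50 of 123 at 7 h (104), and Mcm5 77 of 132 at 3 h (87) and 11 of 29 at 7 h (125). At T3 the left and right Mcm5 peaks of 7 h ranked 10 and 11 of 29, with scores of 133 and 125, and those of γ-tubulin in asynchronous shTUBG U2OS 36 and 73 of 94, with 88 and 48. In U2OS, T3 ranked 53 of 129 for FoxM1 in asynchronous cells (score 76) and 46 of 75 for γ-tubulin at 7 h (73). In shTUBG U2OS it ranked 60 of 67 for γ-tubulin at 9 h (score 44) and 36 of 51 for PCNA at 3 h (66). T4 was last of 29 for Mcm5 at 7 h (score 48), 66 of 67 for γ-tubulin in shTUBG U2OS at 9 h (32) and 111 of 123 for γ-tubulin in U2OS at 3 h (44). Its other ranks, both for γ-tubulin in shTUBG U2OS, were 39 of 94 in asynchronous cells (score 84) and 18 of 33 at 3 h (47). For Mcm5 at 7 h, T1 ranked 28 of 29 (score 55), T2 24 of 29 (71) and B2 20 of 29 (96). T2 ranked 85 of 98 for Mcm5 in asynchronous cells (score 43). Of the TUBG peaks 5 of 16, and of the BRSK1 peaks 11 of 20, reached the median score of the list they were in.

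**Figure D3:**
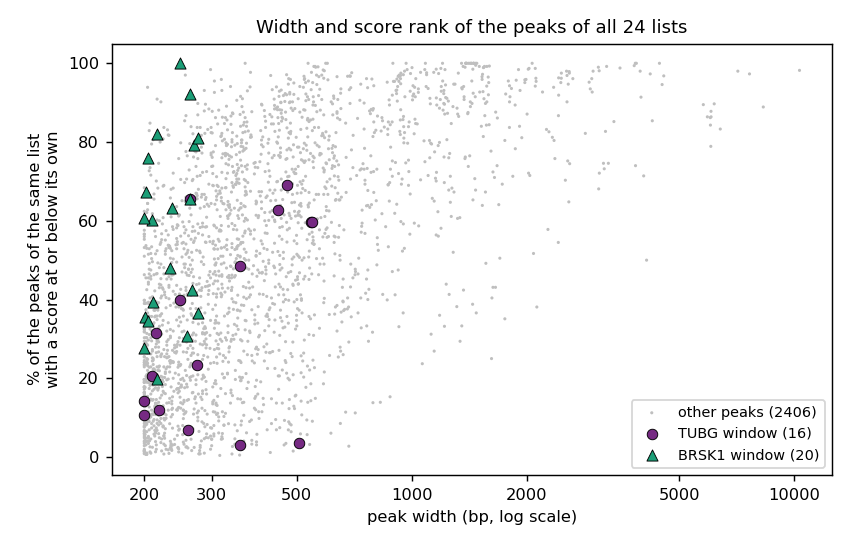
Width of each peak in bp (log scale) against the percent of the peaks of its own list that scored at or below it, for the TUBG window (circles), the BRSK1 window (triangles) and all 2406 other peaks (grey). Peaks of the BRSK1 window lie between 200 and 276 bp and those of the TUBG window between 200 and 548 bp.

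Among antibodies in U2OS, Mcm5 gave the most peaks at the loci and PCNA gave none. Mcm5 called all 8 positions in at least 1 list, and it called 34.4% of all regions. T1 and B2 were positions only through its 7 h list, and T2 only through Mcm5 lists. Part of its count was therefore fixed by how the positions were chosen. Without the 7 h list T1 and B2 drop out, and Mcm5 called 4 positions, T2, B1, B3 and B4, with 6 peaks. Its other lists called 32.0% of all regions. The 14 Mcm5 peaks were 3.80% of its 368 peaks (95% exact binomial interval 2.1 to 6.3), and each of the 4 lists held at least 1. γ-tubulin called 3 positions, T3, T4 and B4, against 35.7% of all regions, with 1 peak at each of the 4 times and 4 of 453 peaks in all (0.883%, 0.241 to 2.25). FoxM1 called 4 positions, T3, B1, B3 and B4, where it called 73.6% of all regions, with 5 of 698 peaks (0.716%, 0.233 to 1.66). PCNA called none of the 8 positions and 23.5% of all regions, and its 0 of 369 peaks allow a share of up to 0.995%. These intervals cover counting error only, and the positions were called repeatedly in lists of the same antibody, so their peaks are not independent of each other.

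The Mcm5 list at 7 h stood apart. It held 8 of the 14 Mcm5 peaks, at T1, T2, T3 (2 peaks), T4, B1, B2 and B4, which were 8 of its 29 peaks (27.6%, 12.7 to 47.2). The other Mcm5 lists had 2 peaks here in asynchronous cells (2.04% of the list), 3 at 3 h (2.27%) and 1 at 9 h (0.917%). Of all regions, 5.68% were called in that list, 22 of 387, and 7 of those 22 were positions of the TUBG and BRSK1 windows. Of these, T1 and B2 were positions through this list alone. The 7 h list was also the shortest Mcm5 list, so both the number of peaks at the loci and the small total enter its share. Without it, 11 peaks at 3 positions remained in the TUBG window and 17 peaks at 3 positions in the BRSK1 window, a count made after the data were seen.

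**Figure D4:**
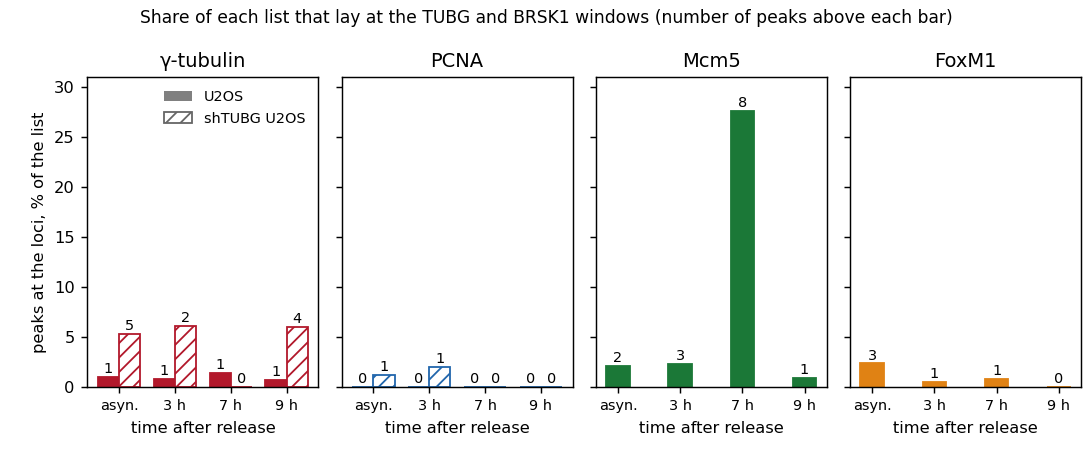
Share of each list, in percent of its peaks, that lay in the TUBG or BRSK1 window, by antibody and time after release, with the number of peaks above each bar and hatched bars for shTUBG U2OS. Mcm5 at 7 h reached 27.6%, and no other list passed 6.06%.

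Overlap of Mcm5 with the other proteins was counted at the same time in U2OS. In the study, Mcm5 sites that also hold PCNA are taken as active replication origins and those without it as dormant ones. Since PCNA of U2OS had no peak in either window, no Mcm5 peak there could overlap one, and this adds nothing to the absence of PCNA calls. An overlap meant that at least 25% of both lengths was shared. At 7 h the PCNA list held mitochondrial peaks alone, and over the other times 216 of all 339 Mcm5 peaks (63.7%) overlapped PCNA, while the loci held 6 Mcm5 peaks. A γ-tubulin peak of the same time overlapped 3 of the 14 (21.4%) and 78.0% of all Mcm5 peaks. A FoxM1 peak overlapped 3 of the 14, all in the BRSK1 window, and 56.8% of all Mcm5 peaks. U2OS had only 4 γ-tubulin and 5 FoxM1 peaks at the loci, so few of the 14 could overlap one. The low shares of the 14 were thus limited by these counts and are no measure of co-occupancy. Seen from γ-tubulin in U2OS, 3 of its 4 peaks at the loci overlapped Mcm5, against 61.4% of all its 453 peaks, and 1 overlapped FoxM1, against 71.3%. In shTUBG U2OS, 1 of the 11 γ-tubulin peaks overlapped a PCNA peak of its time, at B3 in asynchronous cells, against 13.6% of all 236 γ-tubulin peaks of that line.

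Between the lines, γ-tubulin and PCNA were compared at 4 times each. In γ-tubulin, U2OS had 1 peak and shTUBG U2OS 5 in asynchronous cells, 1 and 2 at 3 h, 1 and 0 at 7 h, and 1 and 4 at 9 h. In PCNA, U2OS had none at any time, and shTUBG U2OS had 1 in asynchronous cells, at B3, and 1 at 3 h, at T3. Over the 8 pairs of lists shTUBG U2OS had more peaks at the loci in 5, as many in 2 and fewer in 1. The totals were 4 of 822 peaks in U2OS (0.487%, 0.133 to 1.24) and 13 of 554 in shTUBG U2OS (2.35%, 1.26 to 3.98), a difference of 9 peaks. Asynchronous cells gave 5 of those 9, and 4 were left without them. The windows were chosen by these same lists. The peaks were repeated calls at T3, T4, B3 and B4 and are not independent of each other. The intervals cover counting error only, and the difference between the lines was not tested.

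The positions called in each line were then compared, with γ-tubulin and PCNA pooled where stated. γ-tubulin in shTUBG U2OS called T3, T4, B3 and B4, 4 of the 8 positions, against 26.6% of all regions. PCNA in shTUBG U2OS called T3 and B3, against 34.9% of all regions. With these antibodies pooled, 4 positions were called in either line, of which 3 were called in both lines, T3, T4 and B4, where 51.5% of the 237 regions called for these antibodies were. The PCNA calls at T3 and B3 had no PCNA counterpart in U2OS. PCNA called 135 of all 387 regions in shTUBG U2OS and 91 in U2OS, so other regions also had this pattern. The share of regions with it was not counted for PCNA alone. B3 was called in shTUBG U2OS and not in a U2OS list of these antibodies, a pattern seen in 39.7% of the 237. No position was called in U2OS alone, which was so for 8.86% of the 237. B3 was called in U2OS by FoxM1 in asynchronous cells and by Mcm5 at 3 h.

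TUBG1 and TUBG2 have close copies in the genome, and how reads that match several places were handled is not given in the sources used here, so the share of reads at T1 to T4 that could come from another copy is uncertain. The lists do not separate chromosomal DNA from introduced DNA. The shRNA construct against TUBG was present in shTUBG U2OS, and other lines of the study carry TUBG1 or TUBG2 cDNA. Of the positions called for γ-tubulin or PCNA, T3, T4 and B4 were called with these antibodies in both lines, and B3 only in shTUBG U2OS. B3 was called in U2OS with FoxM1 and Mcm5, and Mcm5 of U2OS called all 8 positions. Whether introduced DNA contributed to the peaks was not tested.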

How the data were processed

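Peaks of γ-tubulin, PCNA, Mcm5 and FoxM1 immunoprecipitates were analysed from 24 deposited lists, 1 for each antibody, time and line. Per the labels, the authors aligned paired reads to hg19 with Bowtie2 2.1.0, used SAMtools 1.7-13 and called peaks with MACS2. How the 2 samples of a group and the 16 input samples were combined is not given in the sources used here. The deposited lists hold peak coordinates and a whole-number score, and they hold no read numbers.

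Peaks were read in Python 3.11.15, and coordinates are counted from 1. Peaks sharing at least 1 bp were merged, and overlap between antibodies meant at least 25% of both peaks. Merging was tested on simulated peaks. Shares carry 95% exact Clopper-Pearson intervals from scipy 1.17.1. Plots were made in matplotlib 3.10.9. Lists were compared by counts and widths only, with no p-value. The members and motif lists were chosen with earlier results of these data known. All 36 peaks of the windows are described. Promoters of all 3 genes were matched in RefSeq by symbol.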

Additional observations from a re-analysis of the deposited data

Results flagged for a closer look

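For γ-tubulin, the difference in peaks at the loci between shTUBG U2OS and U2OS went the other way at 7 h. It was -1 there, from 1 peak in U2OS at T3 and none in shTUBG U2OS, while shTUBG U2OS had 4 more in asynchronous cells, 1 more at 3 h and 3 more at 9 h. Each value rests on 1 list per line, and the difference between times was not tested.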

How the results depend on the processing

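No paired analysis was possible because the 2 samples of a group share a single list, and no replicate could be left out either. Counts were taken as moved when they differed by over 1.5 times, and 39 of 46 alternative values did not. Scores had the most effect: with only the peaks that reached their list's median score, the TUBG window had 5 peaks in 3 lists instead of 16 in 9, and the BRSK1 window 11 peaks in 7 lists instead of 20 in 13. Leaving out 7 h left 10 peaks in the TUBG window, and leaving out asynchronous cells left 13 in the BRSK1 window and lowered the difference between the lines from 9 to 4. The difference kept its sign under every alternative tried, between 4 and 10. These alternatives are subsets or recounts of the same peaks, so the kept sign is no independent check. The 8 positions were 9 with 25% overlap, 7 with merging within 200 bp, and 6 with positions of at least 2 lists. Leaving out the Mcm5 list at 7 h was added after the data were seen. Read depth is unknown, so a position without a peak was not called in that list and may still hold DNA of the protein.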

Other observations

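A pair of neighbouring regions outside both windows was chosen after its values were seen. On chromosome 7 (hg19), 43958432 to 43958847 was called for FoxM1 (209 bp) and Mcm5 (310 bp) of U2OS at 7 h, and 43959043 to 43959454 for Mcm5 of U2OS at 7 h (412 bp) and γ-tubulin of shTUBG U2OS at 3 h (216 bp). Far from this pair, 158881598 to 158881862 was also called for Mcm5 of U2OS, at 7 h (200 bp) and in asynchronous cells (265 bp). RefSeq lists a pseudogene of TUBG1, TUBG1P, on this chromosome. Whether the pseudogene lies at these regions was not determined, since no hg19 annotation was used here.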
